A study of Mus musculus with 7 samples.

Results

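The genes described here are 10 genes that mark the mural cells of blood vessels: Myh11, Acta2, Tagln, Cnn1, Smtn, Lmod1 and Mylk of the contractile smooth muscle apparatus, and Pdgfrb, Rgs5 and Notch3, which are enriched in pericytes. They were listed by symbol and found on the array through the RefSeq transcript of each probe, which gave 11 probes among 28026 probes with a gene symbol. The list was drawn up with earlier results of these arrays known. Of the 10 genes, 9 passed the filter on dim probes, out of 13697 named genes and 22344 features tested, a feature being a named gene or an unnamed probe.

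The samples were cardiac apex RNA of 7 mice (male, C57BL/6, 3 months old), each hybridised to a 1-colour Agilent array. The 3 knockout (KO) animals were homozygous for a floxed p38α gene (Mapk14, exons 2 and 3 between loxP sites) and heterozygous for α-MHC mercremer, a tamoxifen-activated Cre driven by a cardiomyocyte promoter. The 4 control animals were homozygous for the same floxed gene and had no Cre. Animals of both groups had been given hydroxytamoxifen (500 µg daily over 10 days, starting at 6 weeks of age), and angiotensin II at 1.5 mg/kg per day by osmotic minipump over the 48 hours before harvest. The comparison asks what the loss of p38α in cardiomyocytes does to cardiac gene expression under angiotensin II. No group without angiotensin II and none with Cre but without the floxed gene was analysed here, so the deletion and the presence of active Cre cannot be told apart. The Cre driver targets cardiomyocytes, so the deletion is not directed at smooth muscle cells or pericytes. In RNA from whole tissue, fewer cells of a type and less RNA per cell cannot be told apart.

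Vascular smooth muscle cells wrap arteries and arterioles, and they contract when myosin light chain kinase phosphorylates the light chain of smooth muscle myosin on actin filaments. Their contractile genes are classic targets of serum response factor (SRF) and its coactivator myocardin, which act at a sequence called the CArG box. Pericytes sit on capillaries, are recruited through platelet-derived growth factor B and its receptor PDGFRβ, and depend on Notch signals from the endothelium. Acta2, Tagln and Cnn1 are also made by activated fibroblasts, so in heart tissue they are not exclusive to vessels.

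All values are log2 signals relative to each array's 75th percentile, and a difference is KO minus control on that scale. A gene passed when its adjusted p in limma (Benjamini-Hochberg over all features) was under 0.05. On each array 46.0% to 49.7% of probes were well above background. Control hearts 3 and 4 correlated less with the KO hearts over all features (0.940 to 0.958) than control hearts 1 and 2 did (0.963 to 0.988). Control hearts 3 and 4, with KO hearts 2 and 3, lay in row 2 of the slide, and the other 3 hearts lay in row 1. Mapk14 did not fall in KO hearts (difference 0.22, adjusted p = 0.202), and the sources used here do not place its probes relative to the deleted exons, so it does not check the labels. One Esr1 probe, which could read the oestrogen receptor part of the Cre, was well above background on 3 of 3 KO arrays and on 0 of 4 control arrays. Its level was uneven, at -0.82, 0.07 and 4.50 in KO hearts 1 to 3. The other Esr1 probes were well above background on 0 KO and 0 control arrays. All 12 cardiomyocyte markers listed for the tissue check passed the filter.

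Of the 9 measured genes, 2 were lower in KO hearts, Smtn and Rgs5, and 0 were higher. At an unadjusted p under 0.05 these counts in limma were 3 lower and 0 higher, and with an unmoderated test per gene 0 passed in either direction. The groups did not overlap for the same 2 of 9 genes, against 39.0% of all features. Over all features 25.2% passed, 15.0% lower and 10.2% higher in KO, so 2 of 9 lower (22.2%) is near the background. The share of all features at an unadjusted p under 0.05 is not given here and is at least the share that passed. Counts at that threshold, here and below, therefore have no background beside them. The 9 genes were well above background on all 7 arrays, so none entered through a single group. The median difference was -0.054 over the 6 measured contractile genes and -0.28 over the 3 pericyte genes, against -0.058 over all features. Neither class moved as a block: among contractile genes 2 differences were above 0 and 4 below, and among pericyte genes 1 was above and 2 below.

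**Figure D1:**
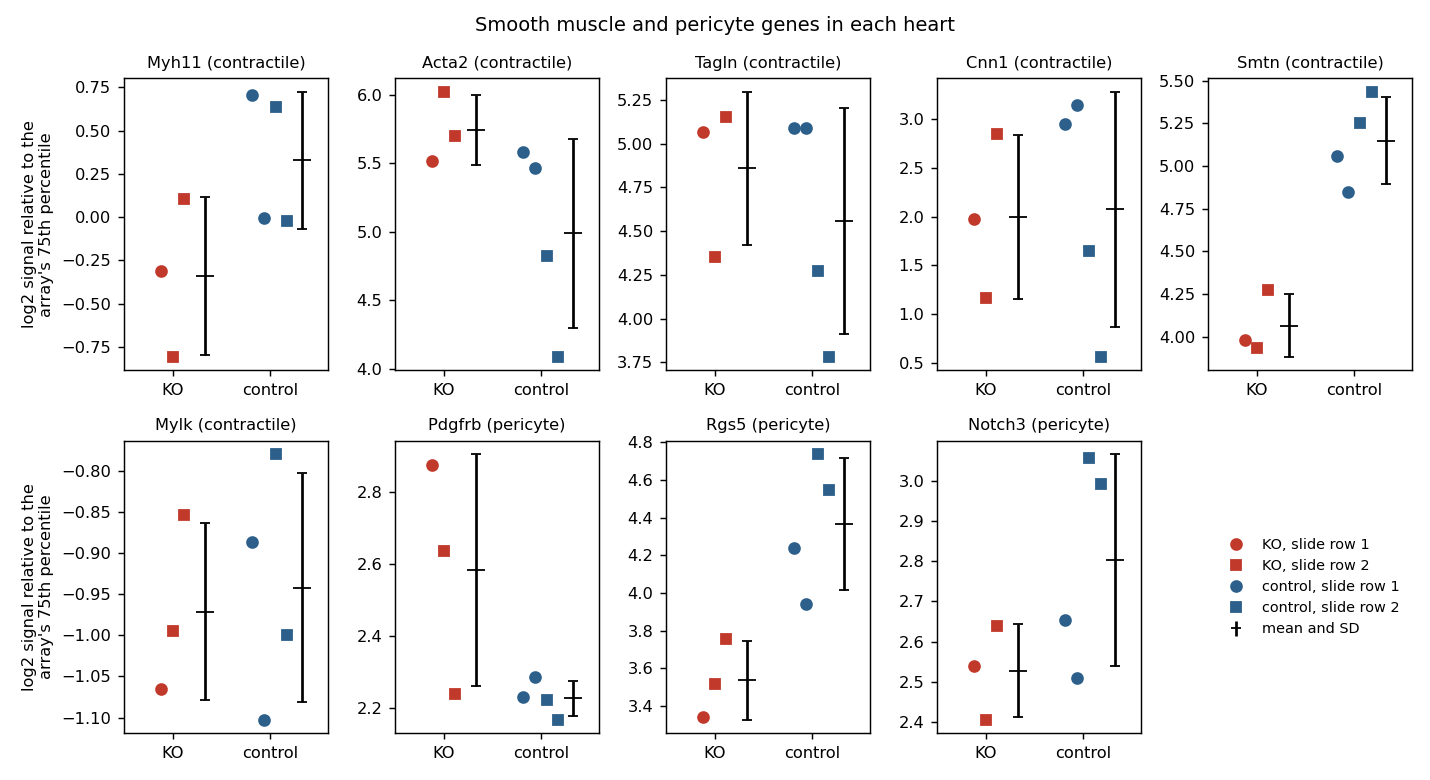
Log2 signal of the 9 measured genes relative to the array's 75th percentile, 1 panel a gene, with KO hearts left (n = 3) and control hearts right (n = 4), circles for slide row 1 and squares for row 2, and the mean with its SD in black. Smtn and Rgs5 separate the groups; in Acta2, Tagln and Cnn1 the lowest heart is control 4, at 4.09, 3.78 and 0.56.

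Smtn encodes smoothelin, an actin-associated protein of fully contractile smooth muscle cells. Its brighter probe read 3.98, 3.94 and 4.27 in KO hearts 1 to 3, against 5.06, 4.85, 5.25 and 5.44 in control hearts 1 to 4. Every KO heart was below every control heart, which was also the case for 21.4% of all features in that direction. The means were 4.06 ± 0.18 in KO hearts (SD, n = 3) and 5.15 ± 0.25 in control hearts (SD, n = 4). The limma difference was -1.08 ± 0.18 (SE, adjusted p = 0.0125), or 2.12-fold lower in KO, with a 95% interval of -1.49 to -0.68. The second Smtn probe, designed to another transcript of the gene, read 1.75, 1.54 and 1.91 in KO hearts and 2.32, 2.42, 2.67 and 2.96 in control hearts. It separated the groups in the same direction, by -0.86. Both probes had an exact two-sided permutation p of 0.0286, the smallest that 7 hearts allow. Within slide row 1 the brighter probe differed by -0.97 and within row 2 by -1.24, and with the row as a block the difference was -1.13 (limma adjusted p = 0.00496). Without KO heart 1 it was -1.04 and did not pass (limma adjusted p = 0.0681).

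Rgs5, which encodes an inhibitor of signalling through G protein-coupled receptors and is a common marker of pericytes, was the other gene to fall. Its probe read 3.34, 3.52 and 3.76 in KO hearts, against 4.24, 3.94, 4.74 and 4.55 in control hearts. The groups did not overlap, and the gap between the highest KO heart and the lowest control heart was small beside the spread among controls. The means were 3.54 ± 0.21 in KO hearts (SD, n = 3) and 4.37 ± 0.35 in control hearts (SD, n = 4), a difference of -0.83 ± 0.21 (SE, limma adjusted p = 0.0289), or 1.78-fold lower in KO. Its exact two-sided permutation p was 0.0571. Within slide row 1 the difference was -0.75 and within row 2 it was -1.01, and with the row as a block it was -0.90 (limma adjusted p = 0.00662). The direction held without any single heart, but the call did not: limma gave -0.73 (adjusted p = 0.122) without KO heart 1, -0.82 (0.0765) without KO heart 2, -0.87 (0.0542) without control heart 1, -0.71 (0.0620) without control heart 3 and -0.77 (0.0748) without control heart 4.

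The gene-centred levels of Smtn and Rgs5 lay closer together across the hearts than those of any other pair of the 9 genes. They differed by a root mean square of 0.18 over the 7 hearts, the smallest of 36 pairs, with Mylk and Notch3 next at 0.19. This distance is also small for genes that vary little, such as Mylk. For Smtn and Rgs5 it is made small in part because both fell. Markers of cardiomyocytes moved in the same direction as both genes. Of the 12 cardiomyocyte markers 6 fell and 0 rose, against 15.0% lower and 10.2% higher over all features. At an unadjusted p under 0.05 in limma 9 were lower and 0 higher, with no share of all features to set beside it. In the unmoderated test 0 of 12 passed. The falls were clearest for troponin I (Tnni3, -1.19), phospholamban (Pln, -2.34), myosin-binding protein C (Mybpc3, -1.22) and sarcomeric α-actinin (Actn2, -0.78). Their summed signal, in units of the array's 75th percentile, was 5435 to 6281 in KO hearts and 6683 to 9750 in control hearts. Without KO heart 1 the count was 0, and the part of these markers in the fall of Smtn and Rgs5 was not tested.

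The upstream sequences of the genes on which these results turn are shown from RefSeq, build GRCm38.p6, as 250 bases before and 50 bases after the annotated start, read 5′ to 3′ on the strand of the gene. Windows of 7 of the 10 genes were used, those of Acta2, Cnn1, Smtn, Lmod1, Mylk, Rgs5 and Notch3. Myh11 and Tagln had no window in the source and Pdgfrb was left out, so none of these was searched. Those of Acta2, Smtn and Rgs5 are printed because Acta2 had the largest positive difference and Smtn and Rgs5 fell. Each window was searched on both strands for CArG-like boxes (CArG boxes with at most 1 G or C in the A/T core), for TGGGAA, the core read by the Notch effector RBPJ, and for CATTCC, the core of the MCAT element read by TEAD factors. Capitals mark CArG-like boxes in Acta2 and the reverse complement of TGGGAA in Smtn. The Acta2 window is chr19:34255324-34255623 on the minus strand, the Smtn window chr11:3539243-3539542 on the minus strand and the Rgs5 window chr1:169655251-169655550 on the plus strand.
Acta2: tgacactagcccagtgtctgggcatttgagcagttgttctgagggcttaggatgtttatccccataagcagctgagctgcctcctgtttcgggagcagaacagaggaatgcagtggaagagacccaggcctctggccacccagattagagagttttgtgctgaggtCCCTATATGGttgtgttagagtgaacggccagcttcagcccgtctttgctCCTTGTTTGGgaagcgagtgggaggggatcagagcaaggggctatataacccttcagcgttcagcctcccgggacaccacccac
Smtn: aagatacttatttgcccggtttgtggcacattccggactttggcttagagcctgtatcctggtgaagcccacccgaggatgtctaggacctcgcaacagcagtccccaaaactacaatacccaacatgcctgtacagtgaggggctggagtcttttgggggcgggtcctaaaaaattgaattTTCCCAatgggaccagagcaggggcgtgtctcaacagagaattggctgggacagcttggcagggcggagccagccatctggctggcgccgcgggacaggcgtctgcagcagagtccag
Rgs5: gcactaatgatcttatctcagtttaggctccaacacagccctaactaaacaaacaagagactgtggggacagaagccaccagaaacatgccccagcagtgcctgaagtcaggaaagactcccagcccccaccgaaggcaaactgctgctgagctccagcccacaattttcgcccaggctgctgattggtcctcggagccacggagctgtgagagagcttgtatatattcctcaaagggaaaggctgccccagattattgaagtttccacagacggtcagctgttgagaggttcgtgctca
The Acta2 window held 2 CArG-like boxes, which begin 84 and 34 bases before the start, and was the only one of the 7 windows with any, against 9.98% of 32851 promoter windows. TGGGAA occurred in the Acta2 and Smtn windows, that is in 2 of 7 against 25.6% of all windows, and in Acta2 it overlapped the nearer CArG-like box by 3 bases. CATTCC occurred in 4 of 7 (Acta2, Smtn, Lmod1 and Mylk) against 14.7%. The Rgs5 window held none of these letters.

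Acta2, which encodes α-smooth muscle actin, had the largest positive difference among the 9 genes and did not pass. It read 5.52, 6.02 and 5.70 in KO hearts, against 5.58, 5.46, 4.83 and 4.09 in control hearts. The KO hearts overlapped control hearts 1 and 2, while control hearts 3 and 4 were lower than every other heart. The means were 5.75 ± 0.26 in KO hearts (SD, n = 3) and 4.99 ± 0.69 in control hearts (SD, n = 4), a difference of 0.76 ± 0.36 (SE, limma adjusted p = 0.143, 95% interval -0.065 to 1.58). Within slide row 1 the difference was -0.0072 and within row 2 it was 1.40; with the row as a block it was 0.84 (limma adjusted p = 0.0862). Without control heart 4 the difference was 0.45.

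Tagln (transgelin, an actin-binding protein) and Cnn1 (calponin, which restrains actomyosin) showed the same split among controls. Tagln read 5.07, 4.35 and 5.15 in KO hearts and 5.09, 5.09, 4.27 and 3.78 in control hearts, a difference of 0.30 ± 0.36 (SE, limma adjusted p = 0.551). Cnn1 read 1.97, 1.16 and 2.85 in KO hearts and 2.95, 3.14, 1.65 and 0.56 in control hearts, a difference of -0.079 ± 0.66 (SE, limma adjusted p = 0.939). The groups overlapped for both genes, and for Cnn1 the control hearts alone spanned 2.59 log2 units, the whole range of the 7 hearts. Its 95% interval ran from -1.61 to 1.45 and does not settle the sign. Within slide row 1 Tagln differed by -0.020 and Cnn1 by -1.07, and within row 2 by 0.73 and 0.90.

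Among control hearts, those in slide row 2 were below those in row 1 by 1.07 for Acta2, 1.06 for Tagln and 1.94 for Cnn1, and above them by 0.39 for Smtn, 0.55 for Rgs5 and 0.44 for Notch3. Markers of activated fibroblasts split the control hearts in the direction of Acta2, Tagln and Cnn1. The mean gene-centred level of 8 such markers was 0.31 and 1.004 in control hearts 1 and 2, and -1.73 and -2.26 in control hearts 3 and 4. It was 1.07, 0.29 and 1.31 in the KO hearts. The summed signal of these markers was 227 to 346 in KO hearts and 27.7 to 207 in control hearts. Of the 8, 0 passed (4 higher and 1 lower at an unadjusted p under 0.05; 0 in the unmoderated test), with Timp1 at 2.98, Lox at 3.12 and Fn1 at 1.64. For Timp1 and Lox every KO heart was above every control heart, as for 17.6% of all features. Comp, of the same list, went the other way at -1.46, with every KO heart below every control heart, as for 21.4% of all features. Lox was well above background in 3 of 4 controls, and Tnc and Cthrc1, named after their values were seen, in 2 of 4. Without control heart 2, 5 of the 8 were higher, with the slide row as a block 5, and in row 2 alone 6. Over all features 6970 passed without control heart 2 and 8402 with the row as a block, against 5640 in the main fit. The part of these markers in the spread of Acta2, Tagln and Cnn1 was not tested.

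**Figure D2:**
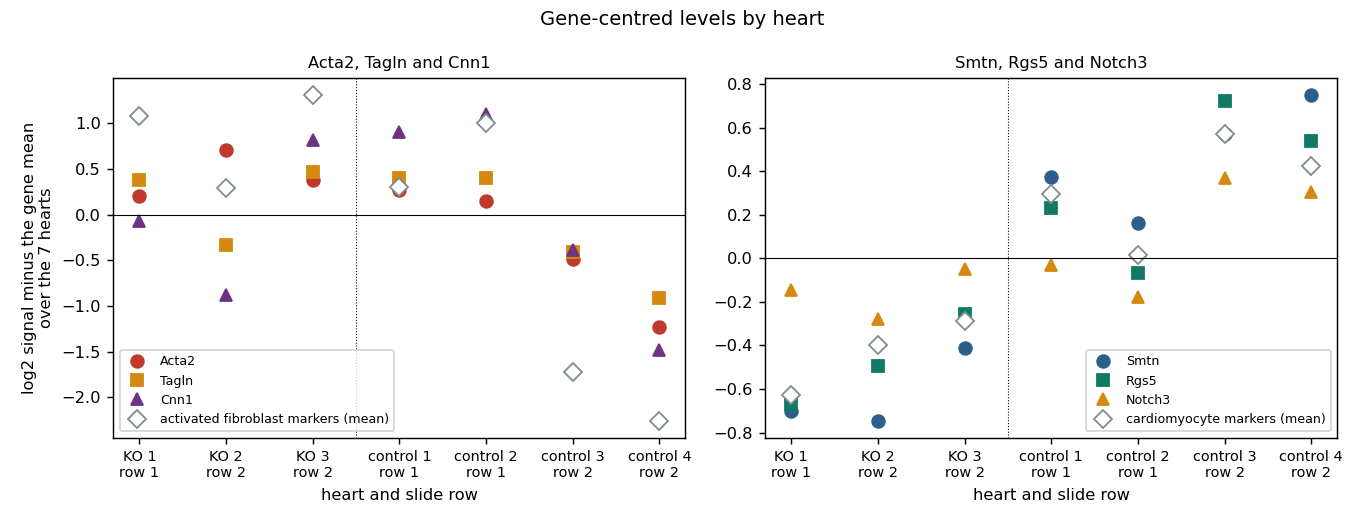
Log2 signal minus the gene's mean over the 7 hearts (vertical axis) for each heart with its slide row (horizontal axis, KO hearts left of the dotted line). Left, Acta2, Tagln and Cnn1 with the mean of 8 activated fibroblast markers, all lowest in control 4; right, Smtn, Rgs5 and Notch3 with the mean of 12 cardiomyocyte markers, where the KO hearts are all below 0.

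Myh11 and Mylk, the motor of smooth muscle and the kinase that switches it on, did not pass. Myh11 read -0.31, -0.81 and 0.10 in KO hearts, against 0.71, -0.0050, 0.63 and -0.023 in control hearts. KO heart 3 lay above control hearts 2 and 4, so the groups overlapped. The difference was -0.67 ± 0.28 (SE, limma adjusted p = 0.107), with -0.66 within each slide row, and it passed only when arrays were weighted by quality (-0.75, limma adjusted p = 0.0155). Without KO heart 2 it was -0.43, nearer 0 than without any other heart. Mylk was the least variable of the 9 genes: it read -1.07, -0.99 and -0.85 in KO hearts and -0.89, -1.10, -0.78 and -0.9997 in control hearts, a difference of -0.029 ± 0.13 (SE, limma adjusted p = 0.883). Its 95% interval of -0.34 to 0.28 excludes a change of the size seen in Smtn. Lmod1, which encodes leiomodin 1, a nucleator of actin filaments in smooth muscle, was well above background on 0 of 7 arrays and was not tested.

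Pdgfrb, the receptor for platelet-derived growth factor B on pericytes, had a positive difference. It read 2.88, 2.64 and 2.24 in KO hearts, against 2.23, 2.29, 2.22 and 2.17 in control hearts. KO hearts 1 and 2 were above every control heart, while KO heart 3 lay among the controls. The control hearts were within 0.12 of each other and the KO hearts spanned 0.64. The difference was 0.36 ± 0.17 (SE, limma adjusted p = 0.142), or 0.62 within slide row 1 and 0.24 within row 2. It passed without KO heart 3 (0.53, limma adjusted p = 0.0341) and with array weights (0.59, 0.00679), and it was 0.21 without KO heart 1.

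Notch3, the Notch receptor of mural cells, did not pass. It read 2.54, 2.41 and 2.64 in KO hearts, against 2.65, 2.51, 3.06 and 2.99 in control hearts. The KO hearts overlapped control heart 2, and control hearts 3 and 4 were the highest. The difference was -0.28 ± 0.17 (SE, limma adjusted p = 0.252), or -0.042 within slide row 1 and -0.50 within row 2.

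**Figure D3:**
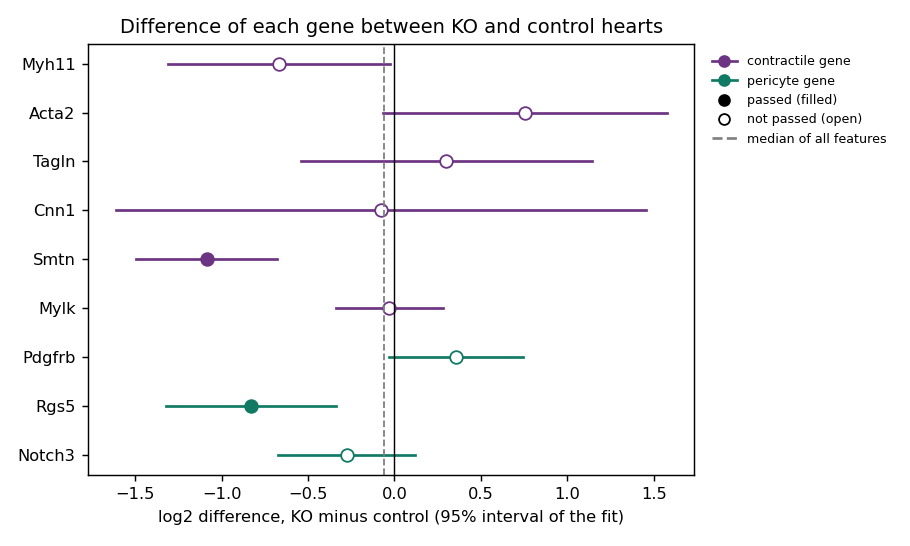
Log2 difference, KO minus control, of each measured gene with its 95% interval from the fit (horizontal axis), contractile genes in purple and pericyte genes in green, filled where the gene passed; the dashed line is the median of all features at -0.058. Smtn at -1.08 and Rgs5 at -0.83 are filled, and the intervals of 6 of the other 7 genes span 0, that of Myh11 ending at -0.026.

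Set against each other, the contractile and pericyte genes did not separate KO from control hearts. The mean gene-centred level of the contractile genes minus that of the pericyte genes was -0.0024, -0.18 and 0.38 in KO hearts, against 0.43, 0.38, -0.30 and -0.71 in control hearts. The KO hearts lay inside the range of the controls. The spread came from the control hearts, in which rows 1 and 2 of the slide had opposite signs. Over the 7 hearts, the named genes nearest to the mean contractile profile, among 13084 candidates, were Zfp953, Ndnf, Ap1s2, Cap2 and Pabpc5, with a root mean square difference of 0.12 to 0.14. Those nearest to the mean pericyte profile were Kat6a, Ubl5, Kdm4b, Wdcp and Polg2, with 0.036 to 0.048.

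Of 18 other pericyte genes, all measured, 4 fell and 0 rose, with a median difference of -0.48 against -0.058 over all features. The share that fell, 4 of 18, stands beside 15.0% lower over all features (8 lower and 1 higher at an unadjusted p under 0.05; 0 passed in the unmoderated test). The 4 were Ednra, the endothelin A receptor (-1.04 ± 0.18, SE, limma adjusted p = 0.0136), Abcc9, the SUR2 subunit of vascular KATP channels (limma adjusted p = 0.0203), Gucy1a1, a subunit of the nitric oxide receptor (-0.99), and Colec11, a collectin (-1.31). Abcc9 read 2.88, 2.70 and 3.10 in KO hearts, against 3.93, 3.35, 4.16 and 4.13 in control hearts. The groups did not overlap, as for 21.4% of all features in that direction. The same group held genes that did not pass: Kcnj8, the channel partner of Abcc9, was at -0.47 (limma adjusted p = 0.143), Cspg4, which encodes the pericyte proteoglycan NG2, at 0.18 (0.460) and Higd1b at -0.078 (0.764); these 3 were chosen after their values were seen. The number that fell depended on which hearts were used, with 0 without KO heart 1, 1 without KO heart 2 and 1 without control heart 4. It was 7 without control heart 2 and 10 with the slide row as a block. Calls over all features moved as well: 69 passed without KO heart 1, 6970 without control heart 2 and 8402 with the row as a block, against 5640 in the main fit. Ednra and Abcc9 are also expressed in cardiomyocytes, some of whose markers fell as given above. The part of the cardiomyocyte markers in the fall of Ednra and Abcc9 was not tested. Endothelial markers had 10 of 10 differences below 0, with a median of -0.28 against -0.058 over all features. Kdr alone passed (-1.19), so 1 of 10 fell, against 15.0% lower over all features. Without KO heart 1, 0 passed, and without control heart 2, 2 passed. Tek was at -0.71, Tie1 at -0.68 and Emcn at -0.49. Nearer 0 were Cdh5 at -0.092, Erg at -0.045 and Vwf at -0.032, named after their values were seen. The summed signal of the endothelial markers was 111 to 142 in KO hearts and 130 to 190 in control hearts. Their part in the pericyte values was not tested.

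Pericytes receive signals from the endothelium through the Notch pathway. Of its 15 listed genes, all measured, 3 rose and 3 fell, against 10.2% higher and 15.0% lower over all features, and 0 passed in the unmoderated test. Notch1 fell by 1.52, while the RBPJ gene itself (Rbpj, 0.53), Notch2 (0.52) and the glycosyltransferase gene Lfng (0.89) rose. The other falls were Notch target genes, Heyl at -0.41 and Hey1 at -0.63. The target genes Hey2 (-0.27, limma adjusted p = 0.589), Hes1 (-0.094, 0.766) and Nrarp (-0.071, 0.873) did not pass; these 5 targets were named after their values were seen. Without KO heart 1 or without KO heart 2, 0 of the 15 passed, without control heart 1, 3 or 4 the counts were 1 and 1, and without KO heart 3 they were 2 higher and 1 lower. Of the PDGF ligands, Pdgfa was at 0.41 (limma adjusted p = 0.0526), Pdgfb, the ligand of PDGFRβ, was at 0.18 (limma adjusted p = 0.483) and Pdgfd fell by 0.70; Pdgfd did not pass without KO heart 1 or 2, or without control heart 1, 3 or 4. The α receptor gene Pdgfra, a marker of fibroblasts rather than pericytes, rose by 0.68, and did not pass without KO heart 1 or 2.

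Of 28 other genes of the smooth muscle contractile apparatus, all measured, 7 rose and 6 fell, with a median difference of -0.15, against 10.2% higher and 15.0% lower over all features; the unmoderated test called 0 higher and 1 lower. Actn1, which encodes the non-striated α-actinin, rose by 2.41 ± 0.44 (SE, limma adjusted p = 0.0146). It read 1.96, 1.76 and 1.12 in KO hearts, against -0.55, 0.26, -1.23 and -1.66 in control hearts. The groups did not overlap, as for 17.6% of all features in that direction. Ppp1r12b, a subunit of myosin phosphatase, fell by 0.75, the small heat shock protein gene Hspb6 was at -1.08 and the actin-binding gene Nexn at -0.85, both passing; all 3 are also expressed in cardiomyocytes. Actg2, the other smooth muscle actin, was at -1.27 and did not pass (limma adjusted p = 0.114), and Myl9, the smooth muscle regulatory light chain, was at -0.29 (0.452); both were chosen after their values were seen. The number of rises called was 0 without KO heart 1 or 2, 2 without control heart 3 or 4 and 4 without control heart 1. The number of falls called was 0 without KO heart 1, 4 without KO heart 2 and 4 without control heart 4. Over all features 69 passed without KO heart 1 and 1138 without KO heart 2, against 5640 in the main fit.

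Of 11 measured transcription regulators of smooth muscle, 0 passed in either direction (2 higher and 0 lower at an unadjusted p under 0.05; 0 in the unmoderated test). Foxs1 was at 0.56 (limma adjusted p = 0.0660), the myocardin-related gene Mrtfa at 0.76 (0.0756), Prrx1 at -0.29 and Tbx18, a mural cell factor, at 0.48. Srf was at 0.17 (limma adjusted p = 0.530) and Myocd at -0.016 (0.970), both named after their values were seen. Without control heart 2, 3 of the regulators were higher, and 1 without KO heart 3. Of 19 measured genes of contraction signalling 3 rose and 3 fell (0 in the unmoderated test), against 10.2% and 15.0% of all features, among them Ednra again and Prkg1, the cGMP-dependent kinase that relaxes smooth muscle (0.74). Adra1a, an α1-adrenergic receptor gene, was well above background on 0 of 3 KO arrays and 3 of 4 control arrays, and was at least 1.86-fold lower in KO, with measured means of -4.53 in KO hearts and -3.36 in control hearts. It passed the filter on dim probes through the control hearts alone, so its call is given as a description. Adra1a is 1 of the 3 falls of this list, and that count is to be set against all features without it. Without KO heart 1 the contraction counts were 0 and 0, without KO heart 2 they were 1 and 1, without KO heart 3 they were 5 higher and 2 lower, and without control heart 4 they were 0 higher and 2 lower.

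**Figure D4:**
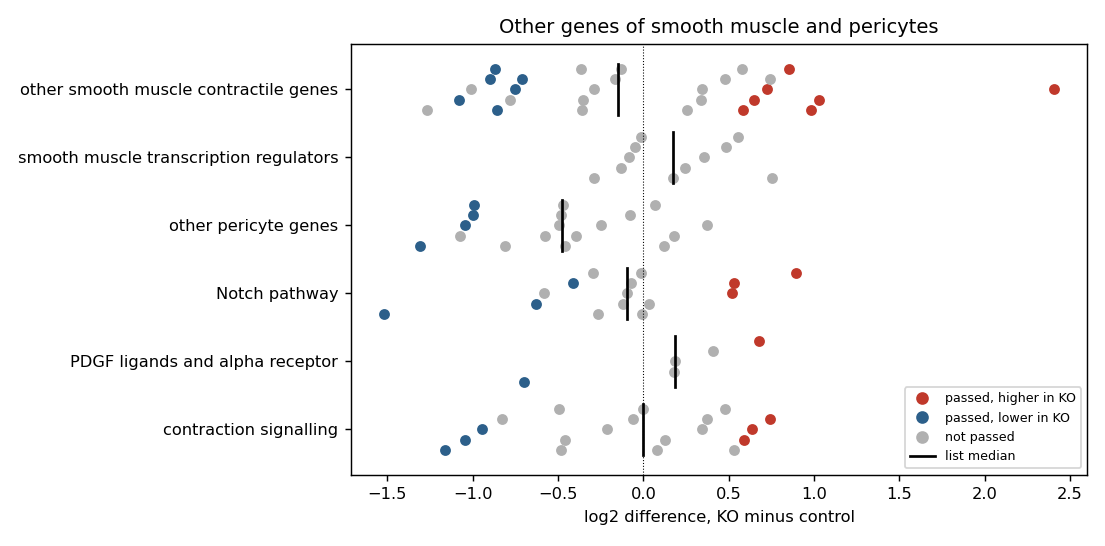
Log2 difference, KO minus control (horizontal axis), of each measured gene in 6 lists, red where it passed and was higher in KO, blue where it passed and was lower, grey where it did not pass, with the list median as a black bar. The other pericyte genes have a median of -0.48 and no red point, while the other contractile genes have 7 red and 6 blue points around a median of -0.15.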

How the data were processed

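Each sample is labelled as its own heart and was counted as 1 animal; another KO heart of the stated design was not analysed here. Per the file headers, the authors scanned with Feature Extraction 11.0.1.1 (Agilent). Its deposited output gives background-subtracted intensity for 62976 spots, 3671 of them controls. The authors' deposited value table holds log2 values, each probe centred on its median over the arrays; its scaling stays unknown, and higher means more signal.

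Intensity was turned to log2, each array's 75th percentile was subtracted, control and outlier spots were left out and spots of a probe were averaged. Kept were probes called well above background in 3 or more arrays of either group (26576 of 55681), and the brightest kept probe stood for a gene. The KO minus control difference was fitted over all 22344 features (limma 3.58.1, R 4.3.3), with Benjamini-Hochberg adjustment; the fit was tested on simulated data. The members, the lists of other genes and the tests were chosen with earlier results of these data known. Named were all members, the 4 lowest p per list, the nearest profiles and the label checks; genes outside this rule are marked, and 1 contraction signalling gene and 1 Schwann cell marker are not reported here. Promoter sequences are from RefSeq, while the array design carries another genome build. Alternatives covered background correction, normalization, filters, the value table, variance models, weights, blocks, single hearts and the threshold. The number of arrays limits the precision.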

Additional observations from a re-analysis of the deposited data

How the results depend on the processing

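Smtn stayed below 0 under all 22 alternatives (-1.24 to -0.97) and Rgs5 likewise (-1.01 to -0.71). With the replicate number as a block, which leaves control heart 4 without weight, Smtn was at -0.99 (limma adjusted p = 0.0564) and Rgs5 at -0.77 (0.0879), so 0 members were lower, and 9 features passed in all. No pairing by number showed in the correlations of deviations, at 0.18, -0.22 and -0.20 for same-numbered hearts. Each KO heart correlated best with another number. With so few hearts these correlations cannot exclude a pairing. The count of members lower was also 0 with an unmoderated test, 1 with no filter on dim probes and 1 with the hearts of slide row 2 alone (added after seeing the data), and 0 to 2 without single hearts. The count higher was 1 with array weights (Pdgfrb, with 3 members lower and 11999 features passing) and 0 to 1 without single hearts. The contractile median was -0.32 to 0.16 and the pericyte median -0.37 to -0.19 without single hearts. Differences within single slide rows moved both medians beyond these ranges. The pericyte median, held by Notch3, was -0.042 within row 1 and -0.50 within row 2.

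The sign changed for 4 members: Cnn1 was at 0.012 and Mylk at 0.062 with median centring, Cnn1 at 0.11 with the slide row as a block, 0.90 in row 2 alone and -0.58 to 0.34 without single hearts. Mylk was at -0.088 to 0.025 without single hearts, and Acta2 was at -0.0072 and Tagln at -0.020 in row 1 alone. Median centring moved the median of all features to 0.033, against -0.058, and no filter to -0.16. The number of features passing was 5640 in the main fit. It was 69, 1138 and 5751 without KO 1, KO 2 and KO 3, and 3266, 6970, 2699 and 2217 without control 1, 2, 3 and 4. It was 8402 with the slide row as a block, 1415 with no filter, 8731 at a threshold of 0.1, 1462 in row 2 alone and 90 unmoderated. The causes were not tested.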

Other observations

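Schwann cell and adipocyte markers gave 0 calls in limma and in the unmoderated test: of 5 Schwann cell markers 4 were measured (0 higher and 1 lower at an unadjusted p under 0.05), with Kcna1 at -0.68, Sox10 at -0.16 and S100b at -0.089, and of 5 adipocyte markers 1 was measured, Fabp4 at -0.35, with Adipoq, Plin1, Cidec and Lep below the filter. Among 11 fibroblast markers 3 fell (Clec3b at -2.43, Pi16 at -1.27 and Dpt at -0.81) and 1 rose (Pdgfra). Of the 11 differences 4 were above 0 and 7 below. Those above 0 included Col1a1 (0.72), Col1a2 (0.53) and Col3a1 (0.49), which did not pass and were named after their values were seen. Over all features 15.0% were lower and 10.2% higher. Of these markers 0 fell without KO heart 1 or 2 or control heart 1, 3 or 4, and 5 fell without KO heart 3 or control heart 2. Among 9 leukocyte markers 3 rose (Cd14 at 1.43, S100a8 at 3.33 and S100a9 at 3.14) and 0 fell, against 10.2% higher and 15.0% lower over all features. The SD in KO hearts was 1.75 for S100a8 and 1.70 for S100a9. Ptprc, at 1.098, did not pass. Of the 9 differences 8 were above 0 and 1 below, that of Itgam at -0.56 (limma adjusted p = 0.0922). Csf1r at 0.23 and Adgre1 at 0.24 did not pass. Itgam, Csf1r and Adgre1 were named after their values were seen. The list had a summed signal of 121 to 141 in KO hearts and 105 to 111 in control hearts. The number that rose was 0 without KO heart 1, 1 without KO heart 2 and 5 without control heart 2.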
